A study of Mus musculus with 10 samples.

Results

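Transcripts of 48 cell cycle and DNA replication genes were measured by RNA sequencing in the dissected first pharyngeal arch (PA1) of E10.5 mouse embryos. The genes were chosen by name as a functional set, with earlier results of these data known. They were 48 of 22114 genes in the count table. All 48 were among the 14561 genes tested. The groups were 5 wild-type and 5 Grhl2-/- arches, each library from the PA1 of 1 embryo, and all embryos were male and labelled C57BL/6, and the mutant line had been back-crossed to C57BL/6J. The Grhl2-null allele was inherited and so present in every cell, whereas the gene is expressed in the epithelium and not in the mesenchyme of PA1. Whole arches were sequenced, so epithelium, neural crest mesenchyme, blood, vessels and nerve were measured together. The comparison addressed whether transcripts of dividing cells were changed in an arch whose maxillary processes the study describes as small at this age. In the study, the area ratio of maxillary to mandibular process did not differ significantly between genotypes. PA1 holds both processes, so the maxillary process was not measured apart.

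Cells pass from G1 into S phase when D-type cyclins with CDK4 or CDK6, and then E-type cyclins with CDK2, release E2F transcription factors from the RB family. Origins of replication are licensed in G1 by loading of the MCM helicase, and ribonucleotide reductase and thymidylate synthase supply the building blocks of DNA. Cyclins A and B with CDK1 then drive G2 and mitosis, and the anaphase-promoting complex ends it. The mesenchyme that fills the facial processes divides rapidly at mid-gestation, and its growth sets the size of the maxillary and mandibular processes.

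Members of this set share letters in their promoters, and 4 windows, picked by hand with the results known, are shown as examples. They are those of Ccne1, Cdk2, Mcm5 and Top2a. Ccne1, a cyclin of the G1/S boundary, was lower in Grhl2-/- arches at the stricter threshold used. Its kinase Cdk2 and the helicase subunit Mcm5 were lower with limma-voom only at the more lenient threshold. Top2a, an abundant mitotic gene, hardly differed. The sequences are from RefSeq on GRCm38.p6, 5′ to 3′ on the strand of the gene. Capitals mark CCAAT, the element TTTGAA or an E2F-type sequence (TTTGGCGC, TTTCGCGC or TTTCCCGC), read on either strand. The E2F-type letters do not overlap the other searched letters in these windows, but in Mcm5 an E2F-type match on each strand overlaps in 1 run of capitals.
Ccne1, chr7:38107535-38107740, minus strand: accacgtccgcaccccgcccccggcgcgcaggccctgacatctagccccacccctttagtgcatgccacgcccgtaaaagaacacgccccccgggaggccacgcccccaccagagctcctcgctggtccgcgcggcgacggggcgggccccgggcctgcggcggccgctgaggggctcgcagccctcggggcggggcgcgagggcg
Cdk2, chr10:128705052-128705301, minus strand: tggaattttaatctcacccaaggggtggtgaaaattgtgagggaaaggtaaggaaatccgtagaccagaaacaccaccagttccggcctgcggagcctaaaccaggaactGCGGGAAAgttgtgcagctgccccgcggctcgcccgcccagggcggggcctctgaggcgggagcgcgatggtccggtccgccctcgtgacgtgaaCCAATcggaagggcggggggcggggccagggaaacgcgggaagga
Mcm5, chr8:75109259-75109508, plus strand: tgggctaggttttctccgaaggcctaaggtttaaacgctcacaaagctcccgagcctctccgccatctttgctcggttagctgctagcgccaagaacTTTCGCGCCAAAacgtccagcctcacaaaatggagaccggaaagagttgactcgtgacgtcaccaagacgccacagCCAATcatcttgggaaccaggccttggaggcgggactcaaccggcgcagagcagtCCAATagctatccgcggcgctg
Top2a, chr11:99024190-99024439, minus strand: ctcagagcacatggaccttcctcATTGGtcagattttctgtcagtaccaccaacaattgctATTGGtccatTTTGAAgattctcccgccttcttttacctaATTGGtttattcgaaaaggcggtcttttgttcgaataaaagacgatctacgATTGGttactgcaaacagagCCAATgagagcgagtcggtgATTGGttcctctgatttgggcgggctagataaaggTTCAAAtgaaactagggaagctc

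The Ccne1 window is shown without the bases that fall inside the annotated gene, and holds none of the searched letters. Windows of 250 bases before the start were found for 39 of the 48 genes, 43 windows in all. Aurkb, Ccna2, Ccnd1, Ccnd2, Ccne2, Cdc25c, Foxm1, Gins2 and Mcm4 had no window. CCAAT was present in 31 of the 43 windows (72.1%), against 33.9% of all 32851 mouse windows of this length. An E2F-type sequence was present in 8 windows (18.6%), against 1.53% of all windows. TTTGAA was present in 10 windows (23.3%), against 15.99% of all. The letters were spread unevenly over the roles. CCAAT was in 5 of 5 windows of the G2 and mitotic entry genes and in 10 of 11 of the mitotic genes. E2F-type letters were in 4 of 9 windows of the licensing and fork genes and in 0 of 11 windows of the mitotic genes. The 8 genes with an E2F-type match were Cdc25a, Cdc6, Cdk1, Cdk2, E2f3, Mcm5, Mcm6 and Mcm7, and 4 of them (Cdc25a, Cdc6, Cdk2 and Mcm5) were among the 9 genes with a window that were lower at an FDR below 0.05. A match is a description of letters and was not tested as a binding site.

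Libraries held 22188454 to 28801378 counts, and the members had 374 to 47165 counts in any 1 arch. Grhl2 was counted 794 to 1163 times in the wild-type arches and 81 to 178 times in the Grhl2-/- arches, as labelled. Epithelial markers were lower in Grhl2-/- arches, with 6 of 10 below an FDR of 0.01 and a summed level of 177 to 263 CPM (read counts scaled by TMM-adjusted library size) against 329 to 439 CPM in wild-type. Markers of sensory neurons varied most, and their summed level was 125 and 110 CPM in wild-type replicates 1 and 2 against 704 to 1156 CPM in the other wild-type arches and 408 to 1481 CPM in the Grhl2-/- arches. Of the 12 neuron markers, 0 passed an FDR of 0.01 or 0.05 with limma-voom, edgeR or DESeq2, and 2 were higher at an unadjusted p below 0.05. Among all 14561 genes tested, 2076 were lower and 2070 higher at that unadjusted level with limma-voom. All listed markers of each other cell type were also detected. Arch mesenchyme markers summed to 2215 to 2831 CPM in wild-type libraries and 2048 to 2350 CPM in Grhl2-/- arches. All 10 were negative, with a median log2 fold change of -0.24, and with limma-voom 1 was lower at an FDR below 0.01 and 2 at 0.05. Their mean log2 CPM relative to the wild-type mean was -0.12 to 0.19 in wild-type arches and -0.28 to -0.21 in Grhl2-/- arches, which did not overlap. Erythroid markers summed to 3702 to 6292 CPM and 2913 to 3939 CPM, and all 9 were negative, with a median of -0.33. Of these 9, 0 passed 0.01 or 0.05 with limma-voom, edgeR or DESeq2, and 5 were lower at an unadjusted p below 0.05. Of 7 endothelial markers, 2 were higher at an FDR below 0.05.

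Cell cycle transcripts were detected in every arch, and a minority of the members passed a test for a difference between genotypes. Of the 48 genes, 2 were lower in Grhl2-/- arches and 0 were higher at a false discovery rate (FDR) below 0.01, using limma-voom with Benjamini-Hochberg adjustment over all genes tested. These were Ccne1 and Ccne2, which encode the E-type cyclins. Of all genes tested, 1.09% were lower and 0.879% higher at this threshold. At an FDR below 0.05, 12 members (25%) were lower and 0 higher, against 3.87% lower and 3.84% higher among all genes. With an unadjusted p below 0.05, 21 members were lower and 1 was higher (Cdkn1b). Of all 14561 genes tested, 2076 were lower (14.3%) and 2070 higher at that level. edgeR gave the same counts as limma-voom at both thresholds, and DESeq2 gave 12 lower members at 0.01, 19 at 0.05 and 0 higher at either. DESeq2 called more genes in all, with 3.80% lower at 0.01 and 7.87% at 0.05.

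Most differences were small and negative. Log2 fold changes (Grhl2-/- minus wild-type) were negative for 43 of 48 members and had a median of -0.10, whereas the median of all tested genes was 0.01 and 47.3% of them were negative. The 95% interval lay wholly below 0 for 21 members and crossed 0 for 26. Among all genes tested it lay below 0 for 14.3%. The 12 members at an FDR below 0.05 were lower by 9.31% to 22.6%. For 12 members the highest Grhl2-/- arch was still lower than the lowest wild-type arch, which was so for 4.66% of genes, and the reverse held for 0 members and 4.22% of genes. These 12 and the 12 at an FDR below 0.05 shared 10 genes. Of the 12 members at an FDR below 0.05, Ccna2, Ccnd1, Ccne2 and Cdk2 have a gene annotated across them on the opposite strand. Pcna, Ccnb1, Ccnb2, Ccnd3 and Tyms have annotated pseudogenes that could share reads with them. In whole arches, fewer cells of a cycling type and less RNA per cell cannot be told apart.

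**Figure D1:**
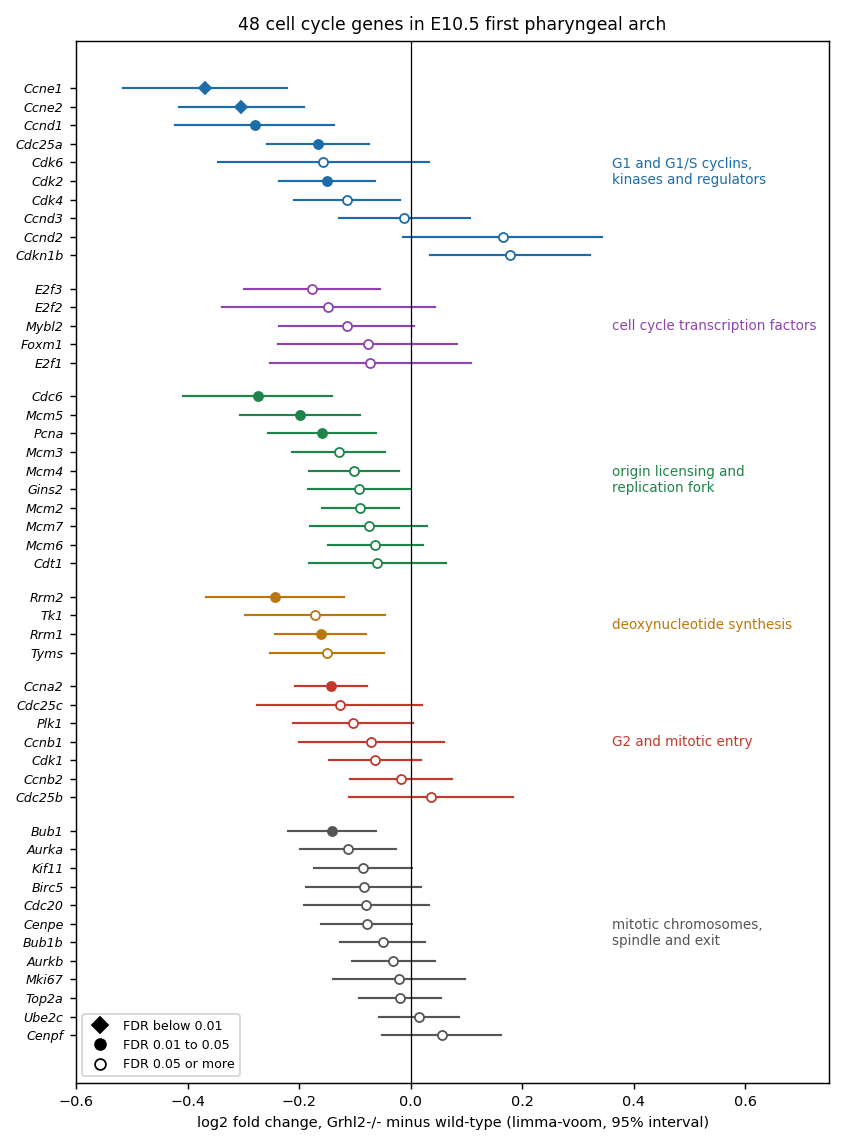
Log2 fold change (Grhl2-/- minus wild-type, horizontal axis) of each of the 48 genes with its limma-voom 95% interval, grouped by role. Diamonds mark an FDR below 0.01, filled circles an FDR of 0.01 to 0.05 and open circles the rest, and 43 of the 48 points lie left of 0.

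The 10 genes of G1 and the G1/S boundary held both calls. Of these, 5 were lower at an FDR below 0.05 and the group's median log2 fold change was -0.15. Ccne1 (ENSMUSG00000002068, chromosome 7, 38097984 to 38107534, minus strand, GRCm38) encodes cyclin E1, which activates CDK2 at the start of S phase. Its level was 126, 132, 127, 119 and 135 CPM in wild-type replicates 1 to 5 and 113, 91.2, 92.6, 92.0 and 108 CPM in Grhl2-/- replicates 1 to 5. Every Grhl2-/- arch was below every wild-type arch. The log2 fold change was -0.37 (SE 0.067, limma-voom FDR 0.00894), a fall of 128 CPM ± 6.33 to 99.4 CPM ± 10.47 (SD, n = 5 each). The call held on leaving out Grhl2-/- replicate 1 (FDR 0.00264) and was lost on leaving out each of the other 9 arches in turn, with FDRs of 0.0108 to 0.0274 and log2 fold changes of -0.41 to -0.34.

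Ccne2 (ENSMUSG00000028212, chromosome 4, 11191351 to 11204779, plus strand) encodes cyclin E2, the partner isoform. Its level was 90.2, 82.3, 80.1, 84.3 and 79.0 CPM in wild-type libraries and 70.7, 65.4, 71.7, 62.2 and 66.5 CPM in the Grhl2-/- arches. The 2 sets of arches did not overlap. The log2 fold change was -0.30 (SE 0.051, limma-voom FDR 0.00579). The call held without wild-type replicate 3 (FDR 0.00847), Grhl2-/- replicate 1 (FDR 0.00411) or Grhl2-/- replicate 3 (FDR 0.00541), and was lost without wild-type replicate 1, 2, 4 or 5 or Grhl2-/- replicate 2, 4 or 5, at FDRs of 0.0108 to 0.0168. Without both wild-type arches of few neuron transcripts, a choice made after the data were seen, the FDRs were 0.0633 for Ccne1 and 0.0311 for Ccne2 and the log2 fold changes were -0.37 and -0.28. Per kilobase of exon, Ccne1 was the more abundant of the E-type cyclins, at 48.1 CPM per kb in wild-type against 23.8 CPM per kb for Ccne2. On the opposite strand, Ints8 overlaps Ccne2 in the annotation, and no gene overlaps Ccne1.

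Cdk2, the kinase bound by E-type cyclins, and Cdc25a, the phosphatase that activates it, also moved at the lenient threshold. Cdk2 was at 141, 133, 124, 127 and 132 CPM in wild-type libraries and 119.9, 115, 121, 117 and 118 CPM in Grhl2-/- arches, with a log2 fold change of -0.15 (limma-voom FDR 0.0410). Cdc25a was at 218, 225, 209.5, 202 and 222 CPM in wild-type libraries and 201, 186, 189.7, 184 and 199.6 CPM in Grhl2-/- arches, with a log2 fold change of -0.17 (limma-voom FDR 0.0355). For neither gene did the genotypes overlap. Both differences were smaller than that of Ccne1, and whether they differ from it was not tested.

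The D-type cyclins, which couple growth signals to the cycle, did not move together. Ccnd1 was at 523, 469.8, 423, 433 and 443 CPM in wild-type libraries and 375, 370.1, 417, 383 and 339 CPM in Grhl2-/- arches. The genotypes did not overlap, and the log2 fold change was -0.28 (SE 0.065, limma-voom FDR 0.0282). Ccnd2 was at 615, 649.5, 545, 577 and 658 CPM in wild-type libraries and 559, 731, 732, 658 and 742 CPM in Grhl2-/- arches, which overlapped. Its log2 fold change was 0.16 (95% interval -0.01 to 0.34, limma-voom FDR 0.207). Ccnd3 had a log2 fold change of -0.01 (95% interval -0.13 to 0.11). In wild-type, Ccnd1 made up 55.3% of the summed CPM per kb of the 3 D-type cyclins, Ccnd2 36.8% and Ccnd3 7.90%. The ratio of Ccnd1 to Ccnd2 per kb was 1.70, 1.45, 1.55, 1.497 and 1.35 in the wild-type arches and 1.34, 1.01, 1.14, 1.16 and 0.912 in the Grhl2-/- arches. This ratio was chosen after the values were seen and was not tested.

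Cdk4, a kinase of the D-type cyclins, was the most abundant member per kilobase at 297 CPM per kb in wild-type, and its log2 fold change was -0.11 (95% interval -0.21 to -0.02, limma-voom FDR 0.117). Cdk6, the related kinase, was at 11.0 CPM per kb and -0.16 (95% interval -0.35 to 0.03). Cdkn1b, which encodes the CDK inhibitor p27, was at 74.4, 64.7, 73.5, 74.0 and 73.4 CPM in wild-type libraries and 72.0, 90.1, 76.2, 83.7 and 86.1 CPM in Grhl2-/- arches. Wild-type replicate 2 lay below the other wild-type arches, and Grhl2-/- replicate 1 lay between it and them. The log2 fold change of Cdkn1b was 0.18 (95% interval 0.03 to 0.32), and it did not pass the test (limma-voom FDR 0.110).

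**Figure D2:**
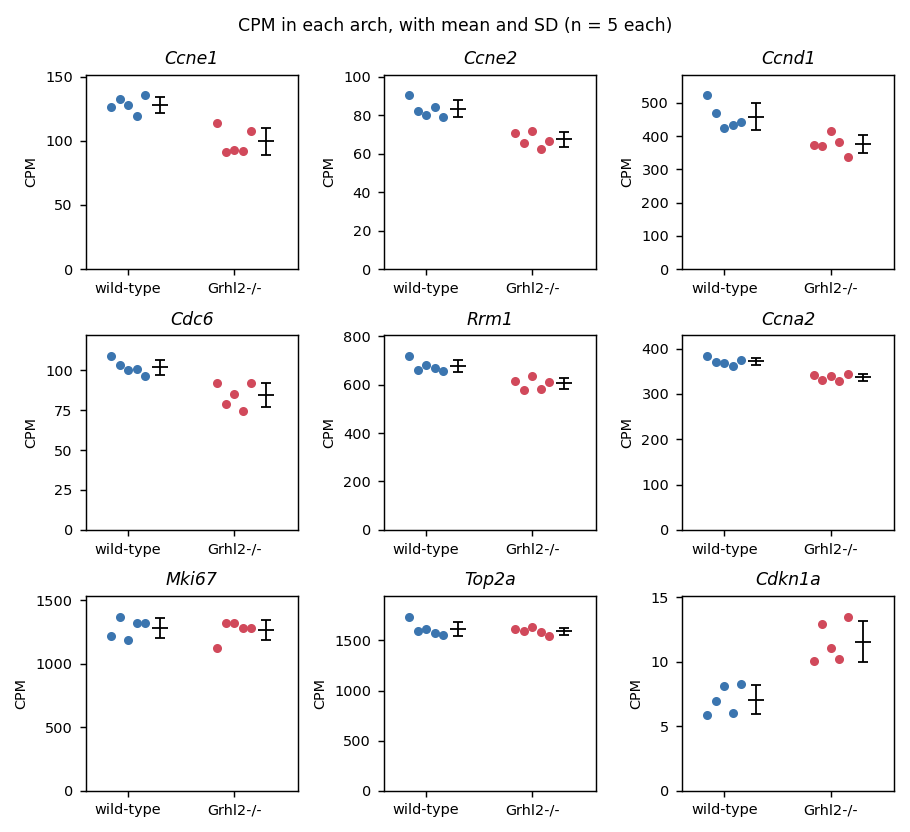
CPM (vertical axes, from 0) of 9 genes in each arch, with the mean and SD of the 5 arches of each genotype beside the points. Ccne1, Ccne2, Ccnd1, Cdc6, Rrm1 and Ccna2 do not overlap between genotypes and are lower in Grhl2-/- arches, Mki67 and Top2a overlap, and Cdkn1a is higher in every Grhl2-/- arch.

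The 5 cell cycle transcription factors were the least abundant group and 0 passed either FDR threshold with limma-voom or edgeR. With DESeq2, 0 passed 0.01 and 1 was lower at 0.05, and at an unadjusted limma-voom p below 0.05, 1 was lower. All 5 log2 fold changes were negative, with a median of -0.12. E2f3, an activator of S phase genes, had the lowest value at -0.18 (95% interval -0.30 to -0.06, limma-voom FDR 0.0717). It was at 141, 149, 124, 138 and 125 CPM in wild-type libraries and 118, 115, 128, 119.9 and 116 CPM in Grhl2-/- arches, where replicate 3 lay within the wild-type range. E2f1, the founding E2F, was at 17.0, 18.2, 14.4, 16.7 and 19.8 CPM in wild-type libraries and 16.4, 17.6, 15.96, 15.8 and 15.5 CPM in Grhl2-/- arches. Its genotypes overlapped throughout and its log2 fold change was -0.07 (95% interval -0.25 to 0.11). The interval of E2f2 was -0.34 to 0.04, of Mybl2, a MYB factor that acts in S phase and G2, -0.24 to 0.01, and of Foxm1, the factor of G2 and mitotic genes, -0.24 to 0.08.

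All 10 genes of origin licensing and the replication fork had negative log2 fold changes, with a median of -0.10, and 3 of them were lower at an FDR below 0.05. Cdc6, which loads the helicase onto origins, was at 109, 104, 100.2, 101 and 96.0 CPM in wild-type libraries and 91.7, 79.1, 84.8, 74.6 and 91.8 CPM in Grhl2-/- arches. There was no overlap, and its log2 fold change was -0.27 (SE 0.061, limma-voom FDR 0.0241). Pcna, the sliding clamp of the polymerases, was at 213, 219, 213, 204 and 218 CPM in wild-type libraries and 202, 183, 187, 180.0 and 206 CPM in Grhl2-/- arches. Grhl2-/- replicate 5 lay above the lowest wild-type arch, and its log2 fold change was -0.16 (limma-voom FDR 0.0495).

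The 6 subunits of the MCM2-7 helicase had log2 fold changes of -0.20 to -0.06, and 4 of their intervals lay wholly below 0. Their wild-type levels per kilobase lay within 2.12-fold of each other. Mcm2 was the lowest at 58.7 CPM per kb and has the longest annotated exon length of the 6, 6956 bases. Mcm5 was at 498, 497, 489, 495 and 507 CPM in wild-type libraries and 483, 391.7, 445, 415 and 437 CPM in Grhl2-/- arches. It was the only subunit at an FDR below 0.05 with limma-voom or edgeR (log2 fold change -0.20, limma-voom FDR 0.0346), and with DESeq2 Mcm2, Mcm3 and Mcm4 also passed. Mcm2 was at 407, 409.6, 413, 406 and 407 CPM in wild-type libraries and 401, 366, 391, 376 and 385 CPM in Grhl2-/- arches. Its genotypes did not overlap although its log2 fold change was only -0.09 (limma-voom FDR 0.0939), since the 5 wild-type arches lay within a narrow range. For both subunits, Grhl2-/- replicate 1 was the arch nearest to wild-type. The intervals of Mcm6 (-0.15 to 0.02), Mcm7 (-0.18 to 0.03) and Cdt1, a licensing factor (-0.18 to 0.06), crossed 0. Gins2, a subunit of the complex that joins the MCM ring in the active helicase, had a log2 fold change of -0.09 (limma-voom FDR 0.170), that of Mcm3 was -0.13 (limma-voom FDR 0.0595) and that of Mcm4 was -0.10 (limma-voom FDR 0.106).

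The 4 genes of deoxynucleotide synthesis had the lowest median of any role, -0.17, and all 4 intervals lay below 0. Rrm1 and Rrm2 encode the subunits of ribonucleotide reductase and were lower at an FDR below 0.05. Rrm1 was at 718, 662, 683, 667 and 656 CPM in wild-type libraries and 617, 579, 636, 584 and 611 CPM in Grhl2-/- arches, without overlap (log2 fold change -0.16, limma-voom FDR 0.0274). Rrm2, whose transcript peaks in S phase, was at 433, 448, 420.2, 388 and 467 CPM in wild-type libraries and 374, 350.0, 344, 353 and 401 CPM in Grhl2-/- arches. Grhl2-/- replicate 5 lay above the lowest wild-type arch, and the log2 fold change was -0.24 (SE 0.057, limma-voom FDR 0.0282). Tyms, thymidylate synthase, did not overlap between genotypes at 144, 136, 132, 134 and 128 CPM against 128, 112, 128, 118 and 123 CPM (log2 fold change -0.15, limma-voom FDR 0.0704). Tk1, the salvage enzyme thymidine kinase, had a log2 fold change of -0.17 (limma-voom FDR 0.0861).

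**Figure D3:**
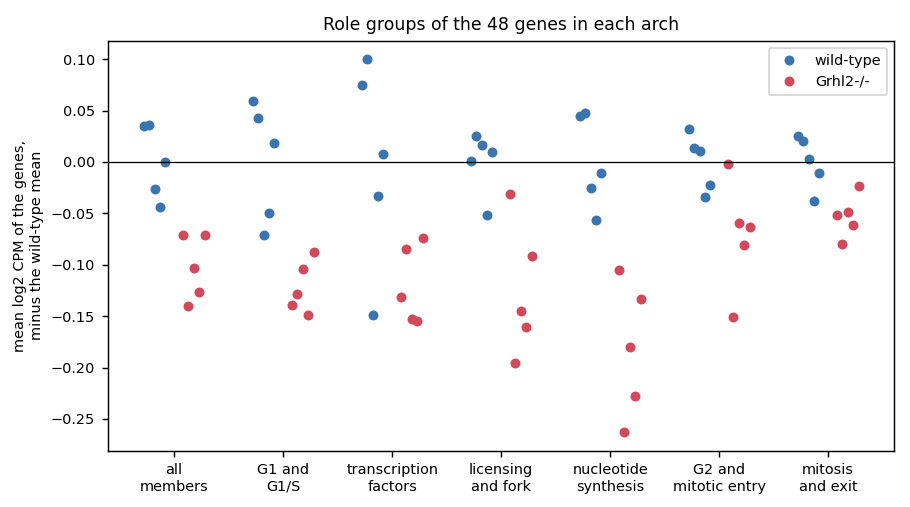
Mean log2 CPM of all 48 genes and of each role group in each arch, minus the wild-type mean (vertical axis). For all members the wild-type arches lie at -0.04 to 0.04 and the Grhl2-/- arches at -0.14 to -0.07, the deoxynucleotide genes reach -0.26, and the genotypes overlap for the transcription factors, the licensing and fork genes and both mitotic groups.

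The 7 genes of G2 and mitotic entry had a median log2 fold change of -0.07, with 1 gene at an FDR below 0.05. That gene was Ccna2, cyclin A2, which acts in S phase as well as G2. It was at 383, 369.8, 368, 362 and 375 CPM in wild-type libraries and 341, 331, 339, 328 and 344 CPM in Grhl2-/- arches. The genotypes were clear of each other, and the log2 fold change was -0.14 (SE 0.030, limma-voom FDR 0.0171). The B-type cyclins, which drive mitosis itself, did not pass. Ccnb1 was at 107, 109.6, 109.9, 100.1 and 104 CPM in wild-type libraries and 114, 88.4, 103, 100.5 and 101 CPM in Grhl2-/- arches (log2 fold change -0.07, 95% interval -0.20 to 0.06). The highest and the lowest Ccnb1 values of all 10 arches were both in Grhl2-/- arches. Cdk1, the mitotic kinase, was at 242, 255, 250.4, 230.3 and 249 CPM in wild-type libraries and 246, 226, 235, 231 and 236 CPM in Grhl2-/- arches (log2 fold change -0.06, 95% interval -0.15 to 0.02). Ccnb2 had a log2 fold change of -0.02 (95% interval -0.11 to 0.07). The phosphatases that activate CDK1 lay either side of 0, Cdc25b at 0.04 (95% interval -0.11 to 0.18) and Cdc25c at -0.13 (95% interval -0.28 to 0.02). Plk1, a kinase of mitotic entry, was at -0.10 (limma-voom FDR 0.189).

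Mki67 and Top2a, general markers of proliferation among the 12 mitotic genes, did not differ detectably. Mki67, the Ki-67 protein of cycling cells, was at 1215, 1367, 1189, 1321 and 1322 CPM in wild-type libraries and 1123, 1318, 1324, 1281 and 1278 CPM in Grhl2-/- arches. The Grhl2-/- replicate 1 arch was the lowest of all, and the other 4 lay within the wild-type range. Its log2 fold change was -0.02, and the 95% interval of -0.14 to 0.10 corresponds to a change of -9.17% to 6.90%. Top2a, the topoisomerase that untangles sister chromatids, was at 1733, 1596, 1612, 1578 and 1558 CPM in wild-type libraries and 1612, 1591, 1633, 1584 and 1542 CPM in Grhl2-/- arches. The genotypes overlapped and the log2 fold change was -0.02, with an interval that corresponds to -6.28% to 3.82%. Changes within these bounds could not be told from 0 with 5 arches in each group.

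Bub1, a kinase of the spindle checkpoint, was the 1 mitotic gene at an FDR below 0.05. It was at 285, 277, 276, 262 and 263 CPM in wild-type libraries and 252, 244, 248, 236 and 256 CPM in Grhl2-/- arches, with no overlap (log2 fold change -0.14, limma-voom FDR 0.0392). Cenpf, a kinetochore protein, had the highest value of the group at 0.06 (95% interval -0.05 to 0.16). It was at 425, 463, 423, 434 and 435 CPM in wild-type libraries and 402, 476, 463, 453 and 474 CPM in Grhl2-/- arches, with the Grhl2-/- replicate 1 arch again lowest. Ube2c, the ubiquitin-conjugating enzyme of the anaphase-promoting complex, was at 0.02 (95% interval -0.06 to 0.09) and Cdc20, its activator, at -0.08 (95% interval -0.19 to 0.03). Aurka was at -0.11 (limma-voom FDR 0.0969) and Aurkb, the kinase of the chromosomal passenger complex, at -0.03. Birc5, a partner of Aurkb in that complex, was at -0.08, the spindle motor Kif11 at -0.09, the kinetochore motor Cenpe at -0.08 and the checkpoint kinase Bub1b at -0.05, none of which passed an FDR of 0.05 with limma-voom. The group's median was -0.06, and differences between the medians of the role groups were not tested.

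Levels and differences are set side by side here without a test. Wild-type levels spanned 4.41 CPM per kb (E2f2) to 297 CPM per kb (Cdk4), a 67.3-fold range. Top2a was next at 179 CPM per kb with a log2 fold change near 0, and Rrm2 followed at 156 CPM per kb with a log2 fold change of -0.24.

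**Figure D4:**
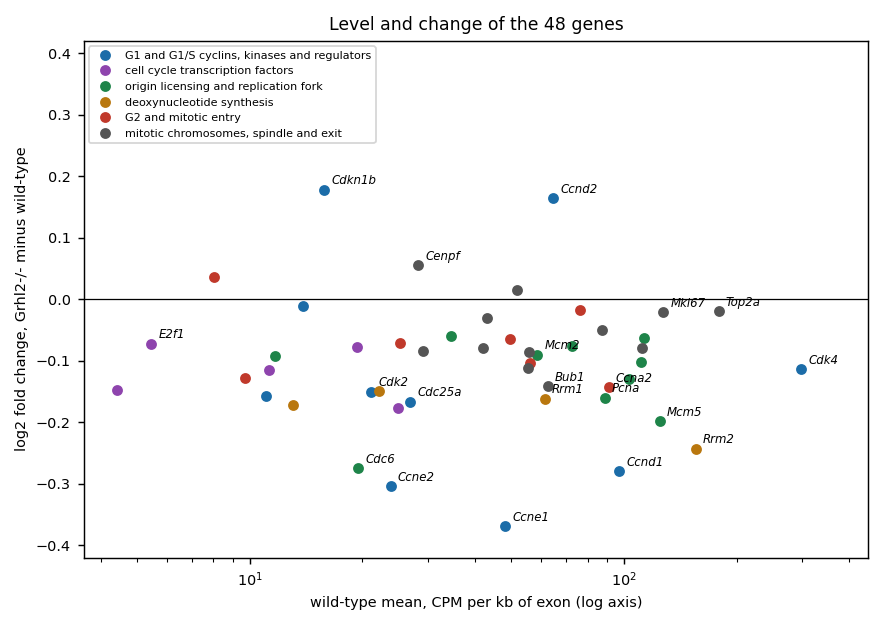
Mean wild-type level of each of the 48 genes in CPM per kb of exon (horizontal log axis) against its log2 fold change (vertical axis), coloured by role. Ccne1 and Ccne2 have the lowest fold changes at 48.1 and 23.8 CPM per kb, while Top2a and Mki67, at 179 and 128 CPM per kb, lie near 0.

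Further genes of the pathway were read from 6 lists. For their unadjusted counts, the background was 2076 lower and 2070 higher of all 14561 genes at a limma-voom p below 0.05. Of 27 tested genes of the DNA polymerases and fork factors, all had negative log2 fold changes, with a median of -0.13, and 7 were lower at an FDR below 0.05 (25.9%, against 3.87% of all genes). At 0.01, 0 passed with limma-voom or edgeR, whereas 7 were lower with DESeq2 and 15 at an unadjusted limma-voom p below 0.05. Of the 21 other licensing and initiation genes, 17 were negative and 2 were lower at 0.05 (9.52%), led by Mcm10 (log2 fold change -0.20, limma-voom FDR 0.0289). At 0.01, 0 passed with limma-voom or edgeR and 3 with DESeq2, and 11 were lower at an unadjusted p below 0.05. Of 64 other spindle, kinetochore and cytokinesis genes, 56 were negative with a median of -0.07, and 2 were lower at 0.05 (3.13%, against 3.87% of all genes), with Ncapg2, a condensin subunit, at -0.20 (limma-voom FDR 0.0272). At 0.01, 0 passed with limma-voom or edgeR and 2 with DESeq2, and 21 were lower at an unadjusted p below 0.05.

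Of 18 genes of the RB, E2F and DREAM groups, which repress or drive cycle genes, 1 was lower at 0.05 (5.56%). This was Lin9, a core subunit shared by the repressing and activating complexes (log2 fold change -0.16, limma-voom FDR 0.0490). At 0.01, 0 passed with limma-voom, edgeR or DESeq2, and 7 were lower and 1 higher at an unadjusted limma-voom p below 0.05. Replication-dependent histone genes, of which 61 were tested, had a median log2 fold change of -0.12. At 0.05, 4 were lower (6.56%) and 1, Hist3h2ba, was higher, and Hist1h2bh had the lowest FDR (log2 fold change -0.26, limma-voom FDR 0.0168). At 0.01, 0 passed with limma-voom or edgeR, 4 were lower and 1 higher with DESeq2, and 18 were lower and 1 higher at an unadjusted p below 0.05. Histone genes are near-identical copies, so counts of single genes are uncertain.

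Of the 6 CDK inhibitors tested, 5 had positive log2 fold changes, and the median was 0.18. At an unadjusted limma-voom p below 0.05, 2 were higher. Cdkn1a was the 1 gene of all these further lists that passed an FDR of 0.01 with limma-voom, where 0.879% of all genes tested were higher. It encodes the CDK inhibitor p21, a target of p53, and lies on chromosome 17 at 29090976 to 29100727, plus strand. It was at 5.90, 6.97, 8.16, 6.00 and 8.32 CPM in wild-type libraries and 10.1, 13.0, 11.1, 10.2 and 13.5 CPM in Grhl2-/- arches. All Grhl2-/- arches were above all wild-type arches, and the log2 fold change was 0.70 (SE 0.126, limma-voom FDR 0.00872). The call held without Grhl2-/- replicate 1 (FDR 0.00845) and was lost on leaving out each of the other 9 arches in turn, at FDRs of 0.0119 to 0.0260. Without wild-type replicates 1 and 2 together the log2 fold change was 0.61 (FDR 0.0905). Of the other CDK inhibitors, Cdkn1c, which encodes p57, was far more abundant, at 275 CPM ± 26.5 against 296 CPM ± 39.0 in wild-type and Grhl2-/- arches (SD, n = 5 each), with a log2 fold change of 0.10 (limma-voom FDR 0.474).

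The 12 members at an FDR below 0.05 kept their sign in every fit. All 12 passed 0.05 with edgeR and with DESeq2, whereas 2 passed with the neuron marker level as a covariate and 1 without both wild-type arches of few neuron transcripts. The share of all genes lower at 0.05 was 1.41% and 1.11% in the latter fits. On leaving out 1 arch, 3 of the 48 members were lower at 0.05 without wild-type replicate 1 or 2 or Grhl2-/- replicate 2, where 1.64% to 1.70% of all genes were. It was 4 without Grhl2-/- replicate 4 (1.84% of all genes), 5 without wild-type replicate 5 (2.06%) and 16 without Grhl2-/- replicate 1 (9.08%). The members' count and the count over all genes moved together. Negative log2 fold changes numbered 41 to 44 of 48 members in every one of these fits, including 41 with the neuron covariate. Within label numbers the median log2 difference of the 48 members was -0.05 in number 588 (1 arch of each genotype), -0.11 in 566 and -0.14 in 568 (1 Grhl2-/- against 2 wild-type arches each). The epithelial, arch mesenchyme and erythroid marker lists were also lower on average in Grhl2-/- arches, at -1.36, -0.25 and -0.35 in mean log2 CPM relative to wild-type against -0.10 for the 48 members, and their part in these differences was not tested.

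**Figure D5:**
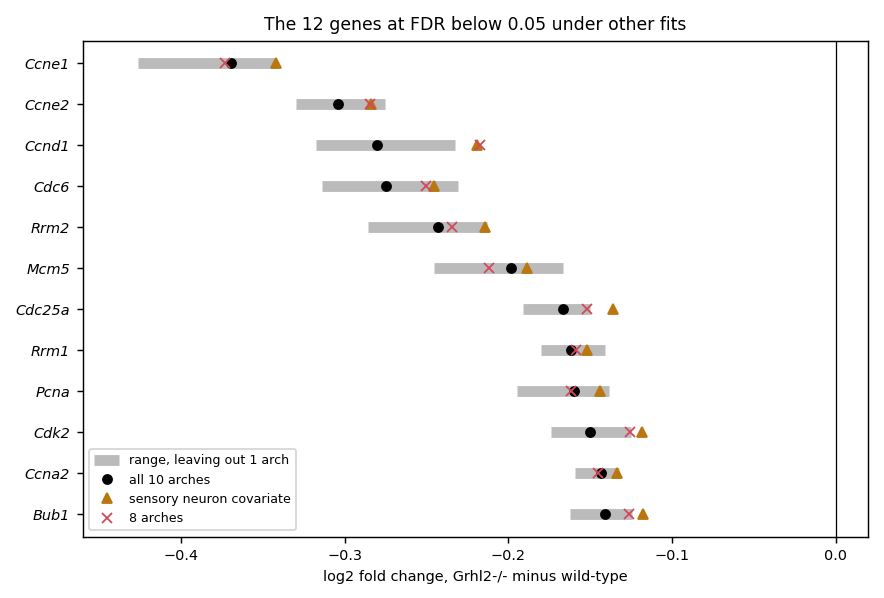
Log2 fold change (horizontal axis) of the 12 members at an FDR below 0.05 with all 10 arches, with a sensory neuron covariate and with 8 arches (without wild-type replicates 1 and 2). The grey bars give the range on leaving out 1 arch, and every point and bar lies left of 0.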

How the data were processed

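PA1 was dissected from 10 male E10.5 embryos and 1 total RNA library was made from each (ribosomal RNA depleted, stranded kit). The authors deposited raw read counts per protein-coding gene, made with STAR on GRCm38 and featureCounts, and per the submitters' processing notes used edgeR 3.18.1 and limma 3.32.7. The kit marks strand and the naming of the table points to reverse-strand counting, but the methods do not state the strand setting. If counting ignored strand, reads of the 16 members with a gene annotated across them on the opposite strand could be mixed. A second deposited table holds the authors' own comparison and was not used. Genes with at least 10 counts in 1 arch were kept, TMM-normalized and tested with limma-voom (limma 3.58.1, edgeR 4.0.16, R 4.3.3), genotype being the only term, over all genes at an FDR below 0.01, as in the study's methods. CPM are TMM-normalized, and log2 CPM have a prior count of 0.5. Alternatives were edgeR and DESeq2 1.42.0 tests, other normalizations, filters, weights, covariates and leaving out each arch. Scripts were tested on simulated data. Members and lists were chosen with earlier results of these data known. All members are described by role, and values per arch are given for those at an FDR below 0.05, without overlap, at the extremes of a role or of general use as markers, and of other lists for genes at an FDR below 0.01 or with the lowest FDR, plus Cdkn1a and Cdkn1c. The values of 1 gene that this rule names are not reported here. Gene coordinates and exon lengths are from GENCODE M21, and promoter windows from RefSeq. The exon length is the union of all annotated exons of a gene. It can exceed that of the transcripts present, so comparisons of genes per kb are approximate. The labels do not say what the number of each library stands for. The study used littermate controls where it could, but which arches shared a litter is not given, and p-values measure the spread between these arches.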

Additional observations from a re-analysis of the deposited data

Results flagged for a closer look

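In 3 of 106 sets of 5 arches examined, 1 arch stood apart from the other 4 of its genotype, where about 5.3 would be so by chance (Dixon's ratio of gap to range, log2 CPM, critical value 0.71). For Cdkn1b, wild-type replicate 2 was lowest at 6.02 against 6.198 for the nearest arch (ratio 0.906). For Mki67, Grhl2-/- replicate 1 was lowest at 10.1 against 10.3 (ratio 0.788). For Cenpf, the same Grhl2-/- replicate 1 was lowest at 8.65 against 8.82 (ratio 0.710).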

How the results depend on the processing

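Over all fits the median log2 fold change of the 48 members stayed negative (-0.12 to -0.07), and 0 members were higher at an FDR below 0.01. The number of members lower at that threshold was 2 in the reported fit, where 1.09% of all genes were lower. It ranged from 0 to 4 on leaving out 1 arch, where 0.756% to 1.71% of all genes were lower. It was 12 with DESeq2 (3.80% of all genes) or at an FDR below 0.05 (3.87%), and 3 with quality weights (1.46%). It was 0 with the neuron covariate (0.824%) or without both wild-type arches of few neuron transcripts (0.620%). Both of these fits leave fewer residual degrees of freedom, and estimates moved as well. Ccnd1 was at -0.28 in the reported fit and -0.22 in both, and Mcm5 at -0.20, -0.19 and -0.21. Why the calls were lost was not tested. Ccne1, Ccne2 and Cdkn1a kept their call with edgeR, DESeq2, each normalization and each filter. Members lower at an FDR below 0.05 numbered 8 with library size alone, where 2.85% of all genes were lower. Members whose genotypes did not overlap numbered 11 to 19 lower (19 without wild-type replicate 4) and 0 to 1 higher (1 without Grhl2-/- replicate 1) on leaving out 1 arch, and 8 lower with library size alone. The share of all genes without overlap is given only for the reported fit (4.66% lower, 4.22% higher). With fewer arches, separation is easier for any gene. Genes near 0 changed sign: on leaving out 1 arch Cdc25b ranged from -0.0033 to 0.084, Mki67 from -0.052 to 0.013 and Top2a from -0.033 to 0.0052, and Top2a was 0.0023 with the neuron covariate. The cause was not tested.

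With the label number as a block, 0 members were lower at an FDR below 0.01 and 4 at 0.05, against 0.474% and 1.98% of all genes. Grhl2-/- replicates 2 and 5 carry numbers, 628 and 604, that no wild-type arch shares. These arches do not inform the genotype term of this fit, which also leaves fewer residual degrees of freedom. Why calls were lost was not tested. The 4 members lower at 0.05 were Ccne1 at -0.39, Ccne2 at -0.29, Cdc6 at -0.30 and Rrm2 at -0.27, with FDRs of 0.0222 to 0.0406. Cdkn1a was at 0.55 with an FDR of 0.0515. Wild-type and Grhl2-/- libraries sharing a number correlated at -0.24 to 0.42 in their deviations from the group means (mean 0.105, 5 pairs, 3 above 0.1). Those of different numbers correlated at -0.43 to 0.34 (mean -0.025, 20 pairs, 8 above 0.1). So few pairs cannot decide whether the numbers pair the arches, and the block was used as an alternative fit only.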
